A study of Homo sapiens with 6 samples.

Results

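The thioredoxin and peroxiredoxin system was followed through 10 genes: the thioredoxins TXN and TXN2, the thioredoxin reductases TXNRD1 and TXNRD2, the thioredoxin-binding protein TXNIP, the peroxiredoxins PRDX1, PRDX3, PRDX5 and PRDX6, and the sulfiredoxin SRXN1. They were chosen by name, with earlier results of these data known, and all 10 were found among the 58884 genes of the expression table. RNA-seq had been performed on untreated cells of 2 lines with 3 libraries each. KYSE70 is an established line of human ESCC (esophageal squamous cell carcinoma) with a mutant NFE2L2 gene, in which a tryptophan near the amino-terminal end of NRF2 is changed to a cysteine. NRF2null-KYSE70 was derived from KYSE70 by CRISPR-Cas9 cutting of NFE2L2, and the study treats the lines as isogenic. Whether they match outside NFE2L2 was not tested here. NRF2null-KYSE70 was grown from 1 clone, in which the study still saw a faint, smaller NRF2 band. Its libraries therefore measured the spread between samples of that clone and not the spread between clones. Whether the 3 libraries of a line came from separate cultures was not given, so p-values measured only the spread between these samples, which may be technical.

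Thioredoxins are small proteins that reduce disulfide bonds in other proteins through a pair of cysteines. Thioredoxin reductases, which are selenoproteins, return oxidized thioredoxin to its active form with electrons from NADPH. Peroxiredoxins remove hydrogen peroxide with a reactive cysteine, and most of them are reduced again by thioredoxin. When that cysteine is oxidized too far, sulfiredoxin repairs it in the typical members of the family, such as PRDX1 and PRDX3. TXNIP binds reduced thioredoxin and blocks it. The system has a cytosolic branch, with TXN, TXNRD1 and PRDX1, and a mitochondrial branch, with TXN2, TXNRD2 and PRDX3. NRF2 is a transcription factor that is known to drive antioxidant genes, among them TXN, TXNRD1, PRDX1 and SRXN1, through the antioxidant response element in DNA.

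The libraries held 52072801 to 63975313 reads counted in genes. The targeted gene NFE2L2 had 9928 ± 102 normalized counts in the parental line and 6093 ± 319 in the clone (mean ± SD, n = 3), a level 61.4% of the parental one, so its RNA was lower in the clone but still present. KEAP1, the gene of the negative regulator of NRF2, was not targeted in this clone. It went from 9834 ± 121 to 5729 ± 441, or 58.3% of the parental level, a fall of similar size. A normalized count is a read count divided by the size factor of its library. All 8 squamous epithelial markers examined reached 10 normalized counts in every library, with a sum of 315969 to 322486 in KYSE70 and 248684 to 259725 in NRF2null-KYSE70. The fall of this sum was that of KRT5, the most abundant of them: without KRT5 the sum was 107249 to 109346 in KYSE70 and 127012 to 131863 in NRF2null-KYSE70, and 6 of the 8 markers were called higher in the clone and 2, KRT5 and TP63, lower. Of the 6 fibroblast markers only COL1A1 reached 10 in every library, COL1A2 and DCN were at 0, and the sum was 1384 to 1618 in KYSE70 and 471 to 622 in NRF2null-KYSE70. COL3A1 was at 282, 212 and 276 normalized counts in KYSE70 and at 7.10, 6.86 and 11.4 in NRF2null-KYSE70. Of the 5 blood cell markers none reached 10 in every library, and their sum was 5.44 to 19.0 in KYSE70 and 45.6 to 58.2 in NRF2null-KYSE70, there mostly PTPRC. Of the 3 endothelial markers only VWF reached 10 in every library, with a sum of 133 to 149 in KYSE70 and 275 to 450.3 in NRF2null-KYSE70. The part of these markers in the results was not tested. As the RNA was taken in bulk, fewer cells that express a gene and less RNA per cell cannot be told apart.

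DNA just upstream of the genes is shown here because the response to NRF2 and, for TXNIP, to glucose is known to be read there. RefSeq promoter windows on GRCh38.p14 were matched by symbol for 7 of the 10 genes, in 12 windows, each from 250 bases before a transcript start to 50 after it. TXN2, PRDX1 and PRDX6 were not matched. Both strands were searched for the antioxidant response element core TGACNNNGC, in which N is any base, and 13.3% of all 35116 windows held it. It was found in 2 of the 12 windows, near that share, and both were windows of TXNRD1. In the first, which begins at the annotated start of the gene, it lay 99 to 91 bases before the start, and another match reached the start itself. In the other, whose upstream part overlaps an annotated exon, it lay 102 to 94 bases before the start, on the opposite strand. The whole upstream part of the first TXNRD1 window (chr12:104215529-104215778, plus strand) and a short stretch of the other (chr12:104286920-104286948, plus strand) follow, with the upstream matches in capitals.

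TXNRD1 upstream of the gene start: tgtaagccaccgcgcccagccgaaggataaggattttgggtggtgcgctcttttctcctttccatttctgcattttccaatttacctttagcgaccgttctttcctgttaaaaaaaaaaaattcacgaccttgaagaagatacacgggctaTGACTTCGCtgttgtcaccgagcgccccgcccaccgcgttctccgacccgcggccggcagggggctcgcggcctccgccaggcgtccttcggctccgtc
TXNRD1 upstream of the downstream start: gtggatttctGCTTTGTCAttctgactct

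Windows of TXN, TXNRD2, SRXN1 and PRDX5 held no match to this core, which says only that these letters were not in those windows. The E-box CACGTG, present in 7.26% of all windows, was found upstream of PRDX3, 157 to 152 bases before the start, in the stretch below (chr10:119178954-119178979, minus strand). The TXNIP window held the letters CACGNG 2 times with 5 bases between them, as in the carbohydrate response element. This pattern was chosen after the promoter sequences were seen, it does not hold the E-box CACGTG in TXNIP, and 0.057% of all windows (20 of 35116) held it. It lay 88 to 72 bases before the TXNIP start, and the upstream part of that window (chr1:145996580-145996829, minus strand) is printed with the match in capitals. A match is a description of the letters and not of binding, which was not measured.

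PRDX3: gtaggaaaacCACGTGtcacttgccc
TXNIP: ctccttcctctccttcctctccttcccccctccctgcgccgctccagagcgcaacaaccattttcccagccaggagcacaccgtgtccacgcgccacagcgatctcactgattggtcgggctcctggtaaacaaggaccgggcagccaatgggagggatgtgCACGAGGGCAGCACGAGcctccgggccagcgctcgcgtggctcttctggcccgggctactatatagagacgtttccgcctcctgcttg

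To ask which genes of the system differ between the NRF2-active parental line and the clone, each was compared in limma on log2(normalized count + 1), with p-values adjusted by the Benjamini-Hochberg method over all 15994 genes with a mean of at least 10. All 10 genes passed that filter. TXN, TXN2, TXNRD1, PRDX1, PRDX5 and SRXN1 were lower in NRF2null-KYSE70, and TXNRD2, TXNIP, PRDX3 and PRDX6 were higher, at an adjusted p under 0.05. These were 6 lower and 4 higher calls of 10, where 28.3% of all genes tested were called lower, 29.3% higher and 57.6% in either direction. The log2 fold change was also at least 1 in size for 2 of the 10, TXN and SRXN1, both lower, against 7.43% of all genes tested that were lower past both thresholds, 7.23% that were higher and 14.7% in either direction. In none of the 10 did the libraries of the lines overlap, with the clone below in 6 and above in 4. Of all genes tested the clone lay below without overlap in 31.3%, above in 32.1% and either way in 63.4%. The median log2 fold change of the 10 was -0.31, and that of all genes tested was -0.01. Calls at an adjusted p under 0.05 were thus common in this comparison, and most of the 10 differences were smaller than 2-fold.

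**Figure D1:**
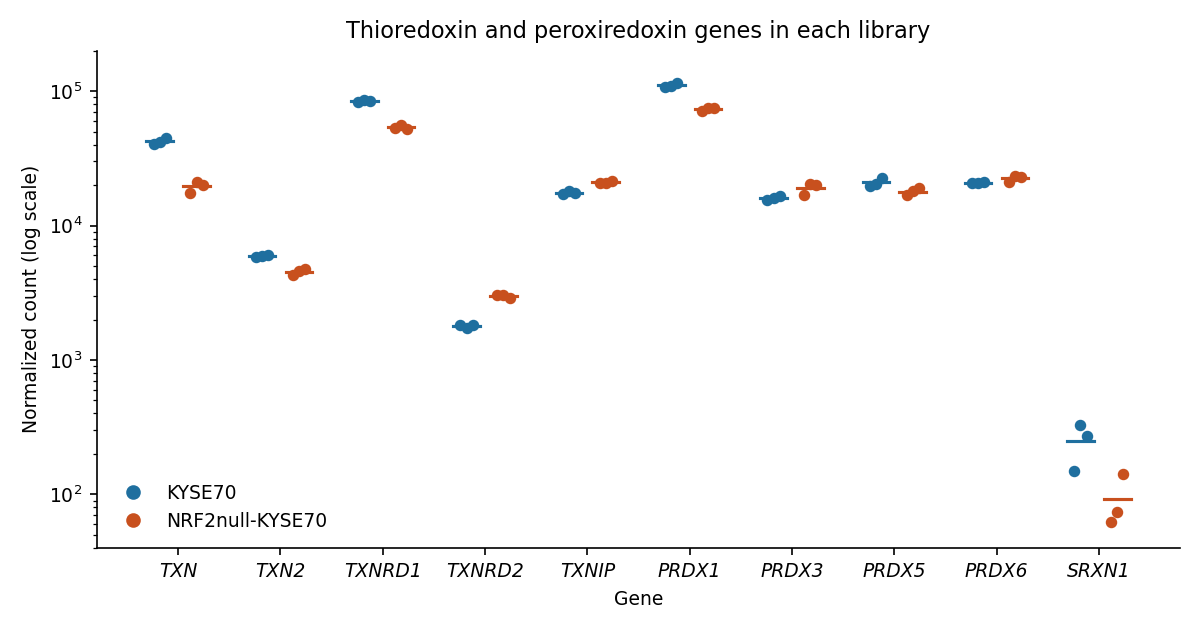
Normalized counts of the 10 genes (log axis) in each library of KYSE70 and NRF2null-KYSE70, with points for libraries and horizontal lines for group means, n = 3 each. The libraries of the lines do not overlap for any gene, and SRXN1, at 61.9 to 328, lies below the other 9, which span 1743 to 114163.

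Together the 10 genes took 0.547%, 0.566% and 0.580% of all normalized counts in the KYSE70 libraries and 0.373%, 0.406% and 0.400% in the NRF2null-KYSE70 libraries. Every NRF2null-KYSE70 library was below every KYSE70 library. PRDX1, TXNRD1 and TXN held most of these counts, with 74.0% to 74.2% of the sum of the 10 in KYSE70 and 61.8% to 63.1% in NRF2null-KYSE70. Within the lines the genes tended to order the libraries alike: KYSE70 library 1 was the lowest of its line for 8 of the 10 genes, and NRF2null-KYSE70 library 1 for 7. Without either of these libraries 6 genes were still called lower, and 3 were called higher without the first and 4 without the second. Of all genes tested 4042 were lower and 4413 higher without the first, and 4671 and 4672 without the second. With all libraries these counts were 4519 and 4687.

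TXN (ENSG00000136810, chr9:110243810-110256507 on hg38, minus strand) encodes the cytosolic thioredoxin. It was measured at 40234, 41609 and 45216 normalized counts in the KYSE70 libraries and at 17596, 21022 and 20159 in the NRF2null-KYSE70 libraries. The lines were well apart, with the highest clone library below the lowest parental one. TXN fell from a mean of 42353 ± 2573 to 19592 ± 1782 (SD, n = 3), or to 46.3% of its KYSE70 level. The log2 fold change was -1.11 (SE 0.0667, 95% interval -1.26 to -0.97, limma adjusted p = 2.22e-08).

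TXN2 (ENSG00000100348, chr22:36467046-36481640, minus strand) encodes the mitochondrial thioredoxin. Its normalized counts were 5797, 5944 and 6032 in KYSE70 and 4261, 4598 and 4718 in NRF2null-KYSE70. All clone libraries were lower, but the gap was small beside that of TXN. The level in the clone was 76.4% of its KYSE70 level, and the log2 fold change was -0.39 (SE 0.0522, 95% interval -0.50 to -0.28, limma adjusted p = 3.44e-05).

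TXNRD1 (ENSG00000198431, chr12:104215779-104350307, plus strand) encodes the cytosolic thioredoxin reductase, and its promoter window is the one above with the response element core. It was measured at 83194, 85490.4 and 84754 normalized counts in KYSE70 and at 53539, 55919 and 52364 in NRF2null-KYSE70. The libraries of a line lay close together and the lines did not overlap. TXNRD1 fell to 63.9% of its KYSE70 level, and the log2 fold change was -0.65 (SE 0.0466, 95% interval -0.75 to -0.55, limma adjusted p = 1.19e-07). The 40 nearest tested protein-coding genes on the chromosome had a median log2 fold change of -0.49, and once this was subtracted the difference was -0.16 (limma adjusted p = 0.0313, against 1.35e-39 to 0.0313 over all alternatives run).

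TXNRD2 (ENSG00000184470, chr22:19875517-19941820, minus strand), the mitochondrial thioredoxin reductase, differed in the other direction. Its normalized counts were 1806, 1743 and 1819 in KYSE70 and 3064, 3058 and 2881 in NRF2null-KYSE70. Every clone library was above every parental library. TXNRD2 rose to 168% of its KYSE70 level, and the log2 fold change was 0.75 (SE 0.0563, 95% interval 0.62 to 0.87, limma adjusted p = 1.89e-07), the largest rise among the 10 genes.

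TXNIP (ENSG00000265972, chr1:145992435-145996579, minus strand), the thioredoxin inhibitor, was measured at 17093, 18160 and 17366 normalized counts in KYSE70 and at 20772, 20734 and 21325 in NRF2null-KYSE70. The lines did not overlap, and the rise was modest. TXNIP stood at 119% of its KYSE70 level, and the log2 fold change was 0.26 (SE 0.0440, 95% interval 0.16 to 0.35, limma adjusted p = 0.000273).

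PRDX1 (ENSG00000117450, chr1:45510914-45542732, minus strand), a cytosolic peroxiredoxin that is reduced by thioredoxin, was the most abundant of the 10 genes. Its normalized counts were 107534, 110129 and 114163 in KYSE70 and 70935, 75495 and 74536 in NRF2null-KYSE70. PRDX1 fell to 66.6% of its KYSE70 level, and the log2 fold change was -0.59 (SE 0.0493, 95% interval -0.69 to -0.48, limma adjusted p = 5.18e-07). It shares 501 exon bases, 29.8% of its own, with MMACHC on the opposite strand, which had a mean of 1008 normalized counts over the 6 libraries. Whether reads were counted by strand was not given, so reads in those bases may have come from either gene, and MMACHC was far less abundant.

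PRDX3 (ENSG00000165672, chr10:119167720-119178812, minus strand), the mitochondrial partner of TXN2, was measured at 15385, 16171 and 16471 normalized counts in KYSE70 and at 16879, 20477 and 20017 in NRF2null-KYSE70. The lowest clone library was only just above the highest parental one. PRDX3 rose to 119% of its KYSE70 level, and the log2 fold change was 0.25 (SE 0.0668, 95% interval 0.11 to 0.40, limma adjusted p = 0.00599). The call was lost with quantile normalization (log2 fold change 0.11), without the mean-variance trend of limma, and after subtraction of the median of neighbouring genes (log2 fold change 0.09).

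PRDX5 (ENSG00000126432, chr11:64318121-64321811, plus strand) encodes an atypical peroxiredoxin found in mitochondria, peroxisomes and the cytosol. Its normalized counts were 19642, 20402 and 22784 in KYSE70 and 16831, 18058 and 18889 in NRF2null-KYSE70. PRDX5 fell to 85.6% of its KYSE70 level, and the log2 fold change was -0.22 (SE 0.0613, 95% interval -0.36 to -0.09, limma adjusted p = 0.00744). The call was lost without the mean-variance trend and after subtraction of the median of neighbouring genes (log2 fold change -0.07).

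PRDX6 (ENSG00000117592, chr1:173477330-173488815, plus strand) encodes a peroxiredoxin with a single reactive cysteine, which relies on glutathione and not on thioredoxin. It was measured at 20629, 20592 and 20974 normalized counts in KYSE70 and at 21254, 23361 and 22997 in NRF2null-KYSE70. Of the 10 genes it had the smallest difference, 109% of its KYSE70 level, and the log2 fold change was 0.12 (SE 0.0476, 95% interval 0.02 to 0.22, limma adjusted p = 0.0474). The call passed in 7 of 18 alternatives, among them DESeq2 (adjusted p = 0.0499) and subtraction of the neighbour median (log2 fold change 0.22, limma adjusted p = 0.00296), over a range of adjusted p from 0.00138 to 0.497. It was lost in 10, as when any 1 of 5 of the 6 libraries was left out (all but NRF2null-KYSE70 library 1), and in 1, with quantile normalization, the log2 fold change was -0.043, in the other direction.

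SRXN1 (ENSG00000271303, chr20:646615-653200, minus strand), the sulfiredoxin that repairs over-oxidized peroxiredoxins, had the fewest normalized counts of the 10 genes and the greatest spread between libraries. It was measured at 149, 328 and 273 normalized counts in KYSE70 and at 61.9, 73.5 and 142 in NRF2null-KYSE70, which came from 168, 362 and 259 reads and from 61, 75 and 124 reads. The highest clone library lay only just below the lowest parental one. SRXN1 fell to 36.9% of its KYSE70 level, the largest fall of the 10, and the log2 fold change was -1.45 (SE 0.323, 95% interval -2.15 to -0.75, limma adjusted p = 0.00191). Its exons share 2292 of 2528 bases (90.7%) with an overlapping gene model on the same strand, AL121758.1, which was listed at 0 in every library, and how reads in shared exons were assigned was not given, so the SRXN1 count may cover only part of its transcript.

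The neighbours of each gene on its chromosome were examined as well. Around SRXN1 the 40 nearest tested protein-coding genes had a median log2 fold change of -0.94, and only 0.0943% of 15904 genes had a lower median around them. After subtraction of that median SRXN1 differed by -0.50 and no longer passed (limma adjusted p = 0.200, against 6.50e-06 to 0.200 over all alternatives run). Around TXNRD1 the median was -0.49, and 5.28% of genes had a lower one. The neighbours of TXN differed by -0.23 and those of PRDX1 by 0.02, and after subtraction TXN differed by -0.89 and PRDX1 by -0.60. The neighbours of TXN2 differed by 0.21, in the direction opposite to TXN2 itself. TXNRD2, with a neighbour median of -0.05, and TXNIP, with -0.12, differed by 0.80 and 0.38 after subtraction. The part of the chromosomal region in these differences was not tested further.

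**Figure D2:**
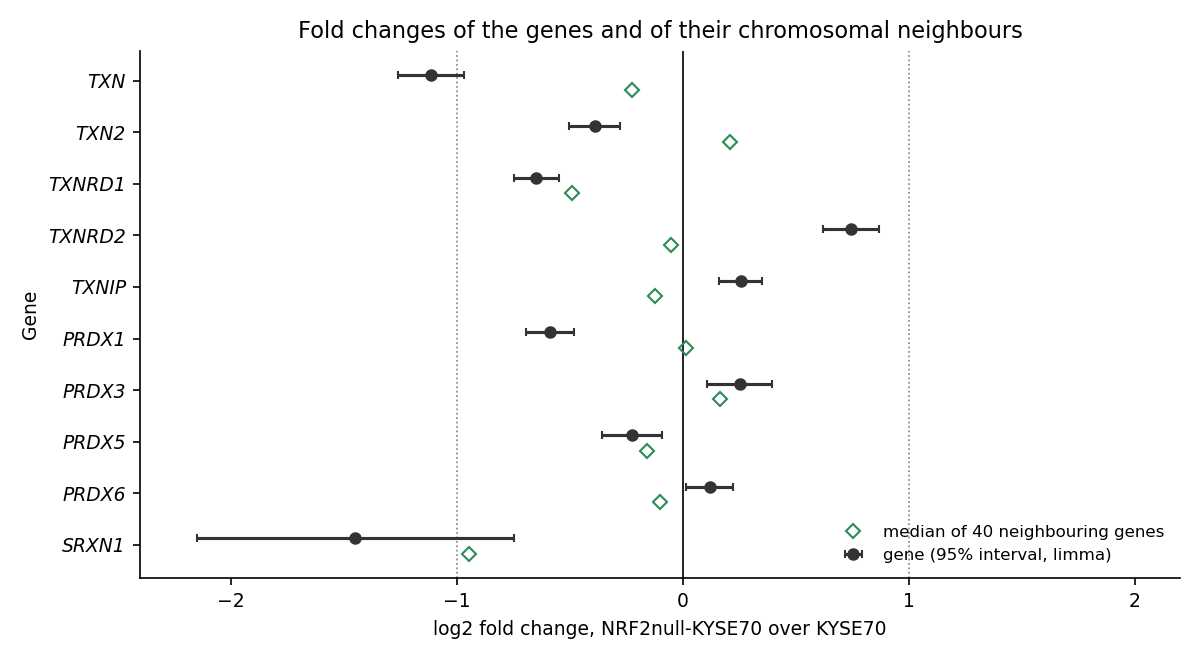
Log2 fold change of NRF2null-KYSE70 over KYSE70 for the 10 genes (filled points with 95% intervals from limma) and the median of the 40 nearest tested protein-coding genes (open diamonds), with dotted lines at a log2 fold change of 1 in either direction. The diamond lies inside the interval for PRDX3, PRDX5 and SRXN1, where the interval is wide, and just outside it for TXNRD1. It lies well apart from the interval for TXN, TXN2, TXNRD2 and PRDX1. For TXNIP and PRDX6 the diamond is also outside the interval, in the direction opposite to the gene.

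Levels between genes were compared per kilobase of exon. In KYSE70 the order of mean normalized counts per kilobase was PRDX1 at 65760.1, TXN at 41933, PRDX5 at 24352, TXNRD1 at 12590.1, PRDX6 at 8971, TXNIP at 4867, PRDX3 at 4738, TXN2 at 3590.4, TXNRD2 at 218 and SRXN1 at 99.0. Only TXNIP and PRDX3 overlapped among neighbours in this order. In NRF2null-KYSE70 PRDX1 remained first at 43790.4, and PRDX5 at 20844 and TXN at 19398 overlapped, so the gap that separated TXN from PRDX5 in the parental line was not seen in the clone. PRDX6 at 9752 stood above TXNRD1 at 8039 in the clone, the reverse of their order in the parental line. These orders depend on gene length: with the longest transcript in place of all exons, TXN at 26584 stayed above PRDX5 at 20844 in the clone without overlap, and TXNRD1 at 13573 and PRDX6 at 13336 overlapped. The place of SRXN1 depends on its shared exons as well. Had all its reads come from the 236 bases that no other gene shares, its level would be 1061 per kilobase in KYSE70, above TXNRD2, and 391 in NRF2null-KYSE70, where the libraries of SRXN1 (262 to 599.8) and TXNRD2 (351 to 374) overlapped. This length was tried after the values were seen.

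The cytosolic and mitochondrial branches were then compared within each library, as a ratio of paralogs does not depend on how libraries were scaled. The TXN to TXN2 ratio per kilobase was 11.3, 11.4 and 12.2 in KYSE70 and 6.75, 7.47 and 6.98 in NRF2null-KYSE70. The TXNRD1 to TXNRD2 ratio was 56.3, 59.9 and 56.9 in KYSE70 and 21.4, 22.4 and 22.2 in NRF2null-KYSE70. The PRDX1 to PRDX3 ratio was 14.0, 13.7 and 13.9 in KYSE70 and 8.44, 7.41 and 7.48 in NRF2null-KYSE70. All 3 ratios were lower in every clone library than in any parental library.

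On the log2 scale the mean TXN to TXN2 ratio was 3.54 ± 0.0609 in the parental line and 2.82 ± 0.0747 in the clone (SD, n = 3), a difference of -0.72. The TXNRD1 to TXNRD2 ratio changed most, from 5.85 ± 0.0481 to 4.46 ± 0.0357, a difference of -1.39. The PRDX1 to PRDX3 ratio went from 3.80 ± 0.0192 to 2.96 ± 0.105, a difference of -0.84. In a two-sided exact permutation test each pair gave p = 0.1, the smallest that 3 against 3 libraries allow, and 0.1 after Benjamini-Hochberg adjustment over the 3 pairs. The differences exceeded the spread between libraries, but the design could not take this test below 0.1. Each difference follows from the fold changes of the paired genes given above, so it is not separate evidence. TXNRD1 and TXNRD2, and PRDX1 and PRDX3, already differed in opposite directions without overlap. The direction and separation of those ratios were therefore known before the test. The genes of a pair lie at different places in the genome, so their neighbours' differences enter the ratio. With each gene's neighbour median subtracted, a step added after the data were seen, the difference was -0.29 for TXN over TXN2, -0.95 for TXNRD1 over TXNRD2 and -0.69 for PRDX1 over PRDX3.

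**Figure D3:**
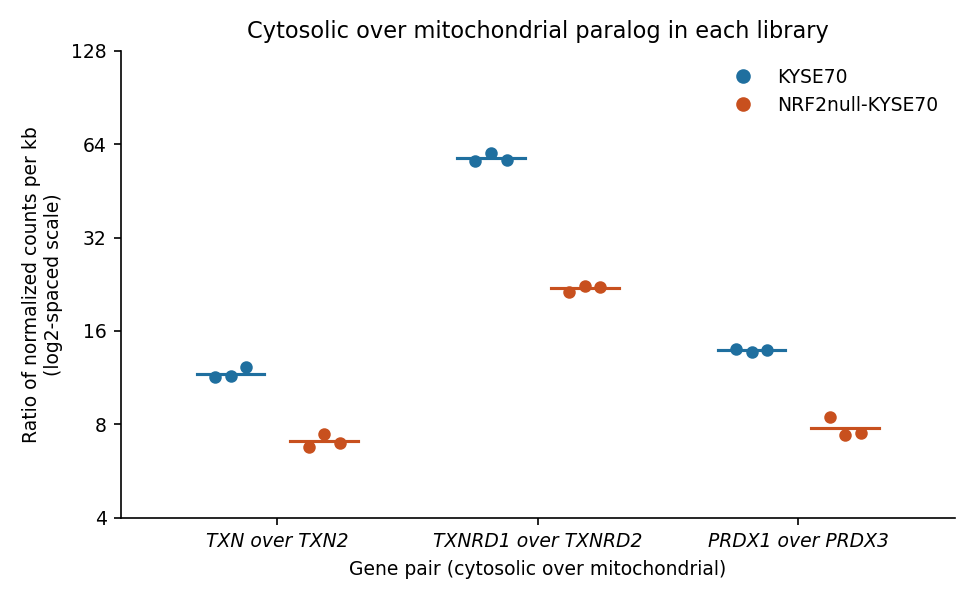
Ratio of the cytosolic to the mitochondrial paralog in normalized counts per kilobase of exon (log2-spaced axis), with a point for each library and a horizontal line at the mean of the log2 values of each line, n = 3. In all 3 pairs the NRF2null-KYSE70 libraries lie below the KYSE70 libraries, with the widest gap for TXNRD1 over TXNRD2.

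Other genes of the pathway were described from 5 lists with 47 genes, all of which were tested. Of these, 16 were lower, 17 were higher and 14 did not pass, with a median log2 fold change of -0.03 beside -0.01 for all genes tested and 28.3% and 29.3% of all genes called lower and higher. The median of the lists was thus near the background. Of all genes tested 57.6% were called in either direction, a smaller share than in the lists. Past both thresholds 4 list genes were lower and 0 were higher, against 7.43% and 7.23% of all genes tested. The 22 other thioredoxin-fold and peroxiredoxin genes had 8 lower, 7 higher and 7 that did not pass, with a median of -0.03. TMX4, a thioredoxin-related protein of the endoplasmic reticulum membrane, was at 2069, 2244 and 2058 normalized counts in KYSE70 and at 2.03, 6.86 and 4.57 in NRF2null-KYSE70, from 2, 7 and 4 reads. Its level in the clone was 0.211% of the parental level (limma adjusted p = 1.2e-10), while its neighbours had a median of -0.83. TXNL1, a thioredoxin-like protein linked to the proteasome, fell to 48.5% (log2 fold change -1.04, limma adjusted p = 2.43e-08), beside a median of -0.54 among its neighbours.

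Below the 2-fold threshold, TXNRD3, the third thioredoxin reductase gene, rose from 1457 ± 23.7 to 2844 ± 141 normalized counts (log2 fold change 0.96, limma adjusted p = 3.17e-08). Its neighbours had a median of 0.47. NXN, the thioredoxin-related nucleoredoxin, rose to 176% of its KYSE70 level (log2 fold change 0.82, limma adjusted p = 1.7e-08), and TXNDC17, a small cytosolic thioredoxin-like protein, fell to 62.9% (log2 fold change -0.67, limma adjusted p = 1.69e-05). TXNRD2 and TXNRD3 were therefore both higher in the clone, and TXNRD1 was lower.

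Among 7 thioredoxin-dependent enzymes, 4 were lower, 1 was higher and 2 did not pass, with a median of -0.21. Over all genes tested 28.3% were called lower and 29.3% higher, with a median of -0.01. MSRA, which reduces methionine sulfoxide in proteins, was at 536, 434 and 542 normalized counts in KYSE70 and at 203, 181 and 177 in NRF2null-KYSE70, a fall to 37.1% (log2 fold change -1.42, limma adjusted p = 1.2e-06, neighbour median -0.74). MSRB1, a selenoprotein that reduces the other form of methionine sulfoxide, fell to 51.3% (log2 fold change -0.96, limma adjusted p = 2.64e-07, neighbour median -0.55). The small subunits of ribonucleotide reductase, which makes deoxynucleotides with electrons from thioredoxin or glutaredoxin, moved in opposite directions. RRM2 fell to 68.1% of its KYSE70 level (log2 fold change -0.56, limma adjusted p = 3.94e-07) and RRM2B, the p53-inducible form, rose to 155% (log2 fold change 0.63, limma adjusted p = 3.07e-07).

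The list of TXNIP relatives, of the glucose-sensing factors that are known to act on TXNIP and of the thioredoxin-bound kinase MAP3K5 held 8 genes. Of these 5 were higher, 1 was lower and 2 did not pass, with a median of 0.19. Over all genes tested 29.3% were called higher and 28.3% lower, with a median of -0.01. ARRDC3, an arrestin-domain relative of TXNIP, was the gene of the list called lower. It was at 2909, 3225 and 3198 normalized counts in KYSE70 and at 761, 983 and 1027 in NRF2null-KYSE70, a fall to 29.7% (log2 fold change -1.76, limma adjusted p = 1.38e-08), while its neighbours had a median of 0.11. MLX, the partner of the glucose-sensing factors, rose by a log2 fold change of 0.34 (limma adjusted p = 0.000506), ARRDC1 by 0.30 (limma adjusted p = 0.00501) and MAP3K5 by 0.26 (limma adjusted p = 0.0127). After subtraction of the neighbour medians MLX differed by 0.40 and ARRDC1 by 0.61, and both passed. MAP3K5, with a neighbour median of 0.17, then differed by 0.095 and did not pass (limma adjusted p = 0.343).

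Thioredoxin reductases need selenocysteine, and of 7 genes for its synthesis and insertion 1 was lower, 3 were higher and 3 did not pass, with a median of 0.17. The shares over all genes tested were 28.3% lower and 29.3% higher, with a median of -0.01. SEPHS2, which makes the selenium donor, fell to 58.5% of its KYSE70 level (log2 fold change -0.77, limma adjusted p = 7.48e-08). Its neighbours had a median of -0.66, and after subtraction SEPHS2 differed by -0.12 and did not pass (limma adjusted p = 0.119). SEPSECS, the enzyme that forms selenocysteine on its tRNA, had a log2 fold change of 0.50 (limma adjusted p = 0.014), though its libraries overlapped between the lines. SECISBP2, which guides insertion at the ribosome, rose by 0.24 (limma adjusted p = 0.00374). The neighbours of SEPSECS had a median of 0.13 and those of SECISBP2 a median of 0.15. After subtraction SEPSECS differed by 0.37 (limma adjusted p = 0.0536) and SECISBP2 by 0.09 (limma adjusted p = 0.222), and neither passed.

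Of the 3 sestrins, proteins induced by stress, SESN3 fell to 71.9% of its KYSE70 level (log2 fold change -0.48, limma adjusted p = 6.44e-06) and SESN1 to 76.7% (log2 fold change -0.39, limma adjusted p = 0.00481), and SESN2 rose to 125% (log2 fold change 0.32, limma adjusted p = 0.000455).

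Finally, each of the 10 genes was recomputed under 18 alternative settings. TXN, TXN2, TXNRD1, TXNRD2, TXNIP and PRDX1 kept their direction and passed in all 18. TXN ranged from -1.22 to -0.89 on the log2 fold change scale, PRDX1 from -0.68 to -0.56 and TXNRD2 from 0.67 to 0.80. TXNRD1 ranged from -0.72 to -0.16, and SRXN1 from -1.80 to -0.50, in both cases with the smallest difference after subtraction of the neighbour median.

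**Figure D4:**
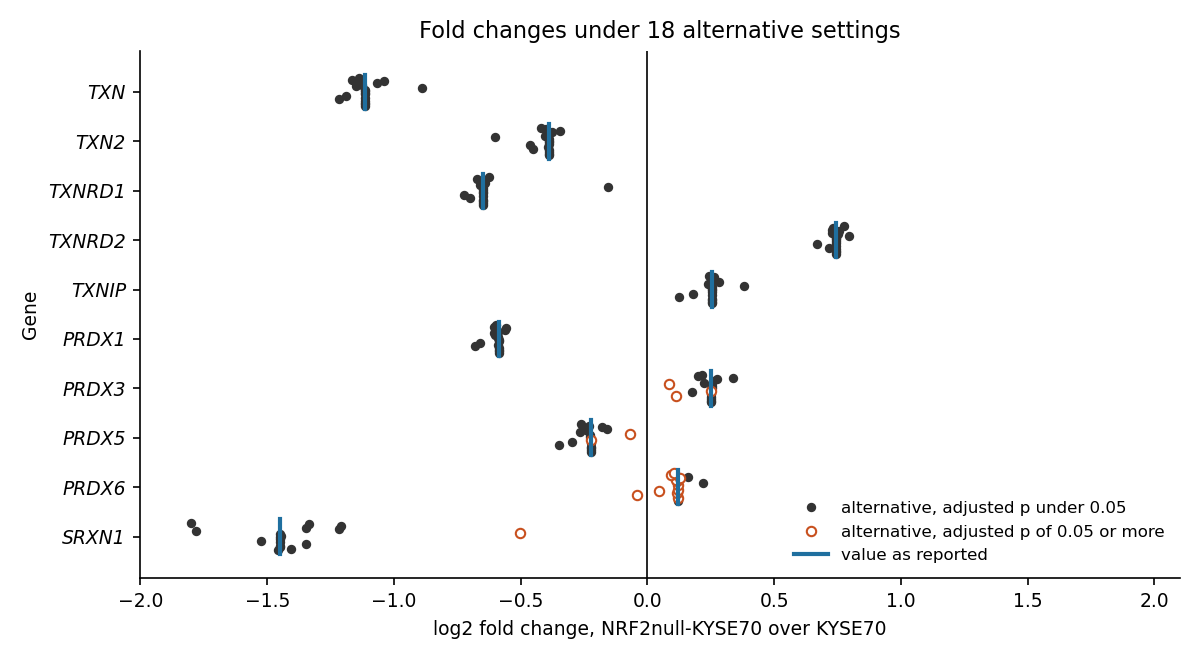
Log2 fold change of the 10 genes under 18 alternative settings (points, filled where the adjusted p was under 0.05 and open otherwise), with a bar at the value reported above. PRDX6 has mostly open points around its small difference, and SRXN1, PRDX3 and PRDX5 each have an open point nearest to 0. PRDX3 and PRDX5 also have an open point at the reported value, from limma with the trend off.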

How the data were processed

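Total RNA was sequenced from 6 libraries, 3 of KYSE70 and 3 of NRF2null-KYSE70. The authors aligned filtered reads to hg38 with STAR 2.6.90c, counted them per gene with featureCounts 1.5.1 and normalized the counts with DESeq2. The deposited signal is normalized counts, from which whole reads were recovered for 100% of values (tolerance 0.01); 1 read was worth 0.889 to 1.14. The methods name a RefSeq annotation, but rows carry Ensembl identifiers. Strand and multiple alignments are not given in the sources used here. Columns carry no replicate number, so libraries are numbered by column order, and 0 columns of values were left unused.

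Differences were tested, two-sided, with limma 3.58.1 in R 4.3.3 (lmFit, eBayes with trend) on log2(normalized count + 1), which understates changes of low genes, for genes with a mean of at least 10. Thresholds were an adjusted p of 0.05 and, for both thresholds, an absolute log2 fold change of 1. The script was tested on simulated data. Neighbour-centring subtracted the median of the 40 nearest tested protein-coding genes. Positions and exons came from GENCODE v44 on hg38, where 58472 identifiers were found. Alternatives were pseudocounts, filters, scaling by quantiles, by TMM and by totals, limma with the trend off or with robust eBayes, DESeq2 1.42.0 and edgeR 4.0.16 on the recovered reads, neighbour-centring and each library left out. The text names all 10 genes, NFE2L2, KEAP1, and from each list the genes past both thresholds and at most 3 others with the largest called changes. The 10 genes and the lists were chosen with earlier results of these data known. Protein sequences were not used here.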

Additional observations from a re-analysis of the deposited data

How the results depend on the processing

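Of 180 recomputed fold changes, 10 genes under 18 alternatives, 163 kept their direction and their side of the threshold, 16 no longer passed and 1 reversed. The reversal was PRDX6 with quantile normalization (log2 fold change -0.043, adjusted p = 0.497, over alternatives 0.00138 to 0.497). Genes of the 10 called higher numbered 4 as reported, 2 with quantile normalization and 2 without the trend, and 3 to 4 with 1 library left out. Of all genes tested 4687 were called higher as reported, 4493 with quantile normalization and 4203 without the trend. With 1 library left out 4264 to 4672 were. Genes of the 10 called lower numbered 6 as reported, 5 without the trend and 4 with neighbour-centring. For all genes tested these counts were 4519, 4065 and 4286. The 2 of the 10 past both thresholds became 0 with neighbour-centring, where TXN was at -0.89 and SRXN1 at -0.50. Of all genes tested 1069 were lower and 1068 higher past both with neighbour-centring, against 1188 and 1156 as reported. Pathway list genes called higher went from 17 to 11 with total scaling, 9 with neighbour-centring and 12 to 16 with 1 library left out. Neighbour-centring took the higher calls over all genes tested from 4687 to 4229, a smaller relative fall than in the lists. Total scaling shifted the median log2 fold change of all genes to -0.08 and gave 5381 lower and 3964 higher genes, against 4519 and 4687 as reported. A filter at a mean of 50 left 727 lower and 784 higher genes past both thresholds, against 1188 and 1156. Neighbour-centring of both genes, added after the data were seen, took the log2 difference of the TXN over TXN2 ratio from -0.72 to -0.29, of TXNRD1 over TXNRD2 from -1.39 to -0.95 and of PRDX1 over PRDX3 from -0.84 to -0.69. The cause of these changes was not tested, except that total scaling and neighbour-centring shift values by construction. No paired analysis was possible because the columns carry no replicate numbers. SRXN1 had the fewest reads of the 10 genes, 61 to 362 per library. Its log2 fold change with 1 library left out ran from -1.80 (without NRF2null-KYSE70 library 3) to -1.21.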
